A study of Mus musculus with 9 samples.

Results

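The genes described here are regulators of the acetylation, protection and cleavage of the cohesin ring, together with Ctcf. They are Esco1, Esco2, Hdac8, Cdca5, Sgo1, Sgo2a, Espl1, Pttg1 and Ctcf. They were chosen by gene symbol for their known roles and not by a rule on measured values, but with earlier results of these data known. All 9 were found among the 16636 genes of the deposited count table, and all 9 were among the 14246 genes that passed the filter on low counts. RNA was measured by bulk mRNA sequencing in E14, an established mouse embryonic stem cell line, here of wild-type genotype. All cells grew on fibronectin in serum-free medium with the MEK inhibitor PD0325901, the GSK3 inhibitor CHIR99021 and LIF, which holds them in the naive state. The 3 groups, of 3 libraries each, were untransfected cells (untreated), cells given a luciferase siRNA as control (siLuc) and cells given siRNA to Stag3 (siStag3). Both siRNA groups were transfected with RNAiMax at seeding and again on the next day and were collected after 48 hours, while the untreated cells received no transfection. The untreated and siLuc groups therefore differ in the transfection as a whole, and the siLuc and siStag3 groups in the siRNA. The design text calls the 3 samples of a group biological replicates of this line.

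Cohesin is a ring of SMC1, SMC3, RAD21 and a STAG subunit that encircles DNA, holds sister chromatids together from S phase to anaphase and extrudes chromatin loops. ESCO1 and ESCO2 acetylate SMC3 and so stabilise the ring on DNA, sororin (Cdca5) then blocks its release by WAPL, shugoshins guard it at centromeres in mitosis, and separase (Espl1), freed from securin (Pttg1) at anaphase, cuts RAD21. HDAC8 removes the acetyl mark so that cohesin can be used again, and CTCF is the zinc finger protein at which loop extrusion halts. In embryonic stem cells, which cycle fast, the S phase and mitotic members of this set are usually well expressed. STAG3, the target of the siRNA, is a STAG subunit best known from meiosis.

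The members differ in the base composition of their transcripts. For several of them, but not for Pttg1 or Hdac8, this difference ran in parallel with how they varied between libraries. For that reason a window of 120 bases from the coding sequence is shown for 5 members, from the lowest to the highest GC content, with G and C in capitals. Each window is the stretch whose GC content lies nearest that of the whole transcript. The sequences are the sense strand, 5′ to 3′, of GENCODE M21 transcripts (GRCm38), with positions counted from the first base of the coding part. They are Esco2 (chromosome 14, bases 97 to 216), Sgo2a (chromosome 1, bases 322 to 441), Pttg1 (chromosome 11, bases 298 to 417), Cdca5 (chromosome 19, bases 253 to 372) and Espl1 (chromosome 15, bases 1 to 120).
Esco2: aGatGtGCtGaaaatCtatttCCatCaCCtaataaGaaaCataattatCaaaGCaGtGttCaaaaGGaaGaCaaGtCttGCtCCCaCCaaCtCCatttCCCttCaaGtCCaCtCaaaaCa
Sgo2a: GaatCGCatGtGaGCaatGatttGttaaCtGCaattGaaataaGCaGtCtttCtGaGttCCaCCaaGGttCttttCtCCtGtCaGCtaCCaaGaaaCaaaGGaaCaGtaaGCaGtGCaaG
Pttg1: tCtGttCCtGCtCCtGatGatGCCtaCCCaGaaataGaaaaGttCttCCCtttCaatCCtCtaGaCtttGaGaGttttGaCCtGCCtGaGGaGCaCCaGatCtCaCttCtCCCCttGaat
Cdca5: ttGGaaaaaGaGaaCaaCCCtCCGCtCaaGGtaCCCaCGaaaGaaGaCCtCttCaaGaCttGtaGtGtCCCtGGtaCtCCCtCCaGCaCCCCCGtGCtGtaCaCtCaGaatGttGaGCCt
Espl1: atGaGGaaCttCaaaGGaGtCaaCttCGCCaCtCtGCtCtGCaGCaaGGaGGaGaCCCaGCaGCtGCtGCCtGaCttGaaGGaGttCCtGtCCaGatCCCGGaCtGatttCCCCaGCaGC
The Esco2 window holds 45 G or C among its 120 bases and the Espl1 window holds 67, with 49 in Sgo2a, 55 in Pttg1 and 62 in Cdca5. Over whole transcripts the GC content was 37.8% in Esco2, 39.2% in Esco1, 40.5% in Sgo2a, 41.5% in Sgo1, 46.0% in Pttg1, 46.4% in Ctcf, 48.7% in Hdac8, 51.5% in Cdca5 and 56.1% in Espl1. The median of the tested genes was 50.0%. Only 2.35% of tested genes had a lower GC content than Esco2, while 81.0% had a lower one than Espl1.

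The siRNA lowered its target. Levels are given as CPM, counts scaled to library size with TMM factors. Stag3 read 24.1, 24.3 and 28.6 CPM in the untreated libraries, 22.5, 23.3 and 26.6 in siLuc and 13.5, 15.2 and 15.6 in siStag3. The siStag3 values lay below those of both other groups (6.59% of genes had no overlap between siStag3 and siLuc), and their mean was 61.2% of the siLuc mean (two-sided exact permutation test, p = 0.1, the smallest possible for groups of 3). On the log2 scale Stag3 differed by -0.71 (SE 0.0722, edgeR quasi-likelihood test with a term for the set, adjusted p = 0.00205). The adjusted p was 0.605 without the set term. Leaving out 1 library at a time, it ran from 0.00211 to 0.0582 and missed the threshold of 0.05 in 1 of 6 cases, without the siStag3 library of Set 1, experiment 1. Annotated Gal3st4 and Gpc2 overlap Stag3, and the strand setting of the counting is not given in the sources used here.

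Total counts ran from 29332436 to 44527534 per library, and the members had 893 to 8210 counts in a library except Hdac8, with 109 to 207. Column names give each library a set number and an experiment number, whose meaning the labels do not state. Every group has 2 libraries of Set 1 (experiments 1 and 3) and 1 of Set 3. In Set 3 the siLuc library is of experiment 1 and the other 2 are of experiment 5, so there the siLuc group and the experiment number cannot be told apart. The first principal component, with 41.1% of the variance, separated the sets, and all fits below hold the set as a term unless they are said not to. Summed over 8 fixed embryonic stem cell markers, levels were 5465 to 5809 CPM. The 7 primitive endoderm markers summed to 2.28 to 4.23 CPM, with 6 of them under 1 CPM in every library, and the 5 fibroblast markers to 3.24 to 5.16 CPM. Some sums had ranges that differed between groups. Among single genes, groups did not overlap for 6.59% in siStag3 against siLuc, 19.9% in siLuc against untreated and 10% in siStag3 against untreated. Hand1 of the trophoblast list and Foxf1 of the mesoderm list were absent from the counts. The trophoblast sum was 60.5 to 64.1 CPM in siStag3 against 68.4 to 72.3 CPM in the other groups. The neural sum was 25.8 to 30.3 CPM in untreated cells, 34.2 to 34.9 in siLuc and 32.2 to 38.1 in siStag3. The mesoderm sum was 7.37 to 8.51 CPM in untreated cells, 4.90 to 7.50 in siLuc and 4.88 to 5.64 in siStag3. The stem cell sum was 5465 to 5625 CPM in siLuc, below the 5661 to 5809 of the other groups, and the endoderm sum was 2.28 to 3.31 CPM in siStag3 against 3.38 to 4.23 in untreated cells. The part of these marker lists in the results below, the Pttg1 differences from untreated cells included, was not tested. In bulk RNA, fewer cells in a phase of the cell cycle and less RNA per cell cannot be told apart.

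In untreated cells the members spanned a wide range of levels per length of transcript (CPM per kilobase of the longest annotated transcript, mean ± SD, n = 3). Cdca5 stood at 50.3 ± 1.81 and Ctcf at 49.8 ± 2.53, and this pair did not differ beyond the spread. Pttg1 followed at 40.2 ± 4.89, Esco2 at 32.3 ± 4.84, Sgo1 at 28.6 ± 2.17, Sgo2a at 24.9 ± 3.95 and Espl1 at 21.9 ± 2.03. In this run from Pttg1 to Espl1, the libraries of each gene overlapped those of the next. Esco1 was lower, at 8.99 ± 1.80, and Hdac8 lowest, at 1.80 ± 0.330, each with no overlap with its neighbour above. Of the SMC3 acetyltransferases, Esco2, the form tied to S phase, was thus at a higher level per kilobase than Esco1, which acts through the cell cycle, with 28.8 to 37.8 against 6.99 to 10.5. Apart from the lowest pair, the order depends on the length chosen. With the median length over a gene's transcripts in place of the longest, Ctcf, Espl1, Sgo1 and Esco2 led at 239, 222, 205 and 160, and Cdca5, at 56.8, no longer stood level with Ctcf but below Pttg1 at 96.4. Esco1 and Hdac8 were lowest with either length.

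**Figure D1:**
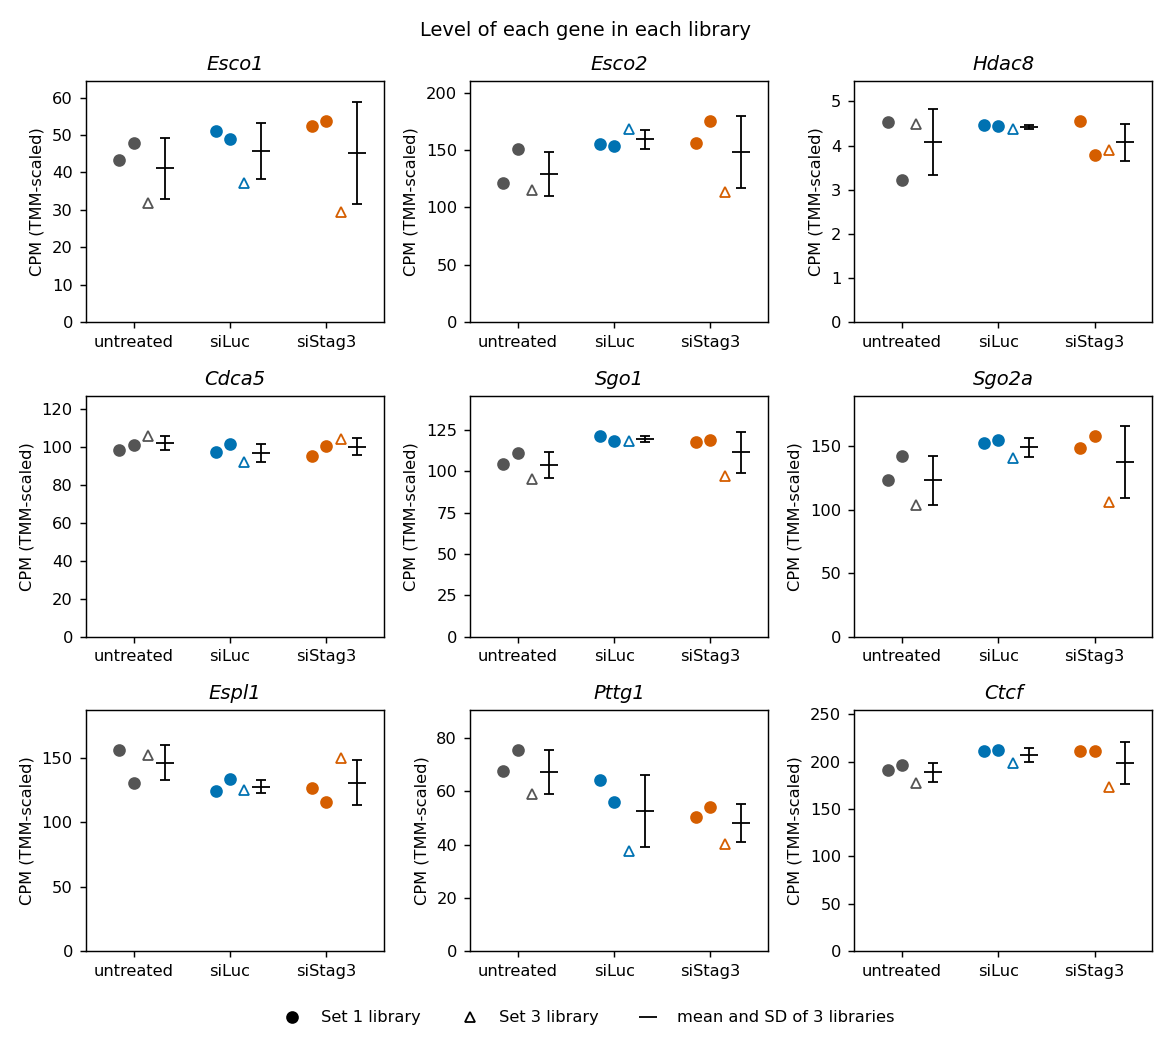
Level of each of the 9 genes in every library, in TMM-scaled CPM (vertical axes start at 0), by group; circles are Set 1 libraries, open triangles Set 3 libraries, and the bar is the mean with its SD over 3 libraries. Pttg1 lies lower in siStag3 (40.3 to 53.9) than in untreated cells (58.9 to 75.3), while Cdca5 stays between 92.1 and 106 in all 9 libraries.

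The main comparison, siStag3 against siLuc, asked whether lowering a STAG subunit went with other levels of the genes that run the cohesin cycle. None of the 9 members passed the threshold, where 0.0281% of all genes tested did (4 of 14246). The log2 fold changes ran from -0.14 for Sgo2a to 0.04 for Cdca5, with a median of -0.11 against 0.00 over all genes. Adjusted p-values of edgeR ran from 0.701 to 0.944, no member had an unadjusted p under 0.05, and the DESeq2 Wald test called none either, where it called 0.172% of the genes it tested. The 95% intervals of all 9 members lay between -0.43 and 0.20. On simulated data for siLuc against untreated (14098 genes), this fit recovered 58.6% of genes changed by 0.5 on the log2 scale. It recovered 85.8% of those changed by 1, with 7 false calls among 155. The simulated counts varied independently around group and set means, so they held no deviations shared by genes of like GC content. Their group differences were also the same in each set. Recovery and false calls in the real libraries may therefore differ from these values. Recovery was not tested for siStag3 against siLuc, nor for changes as small as those of the members here.

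**Figure D2:**
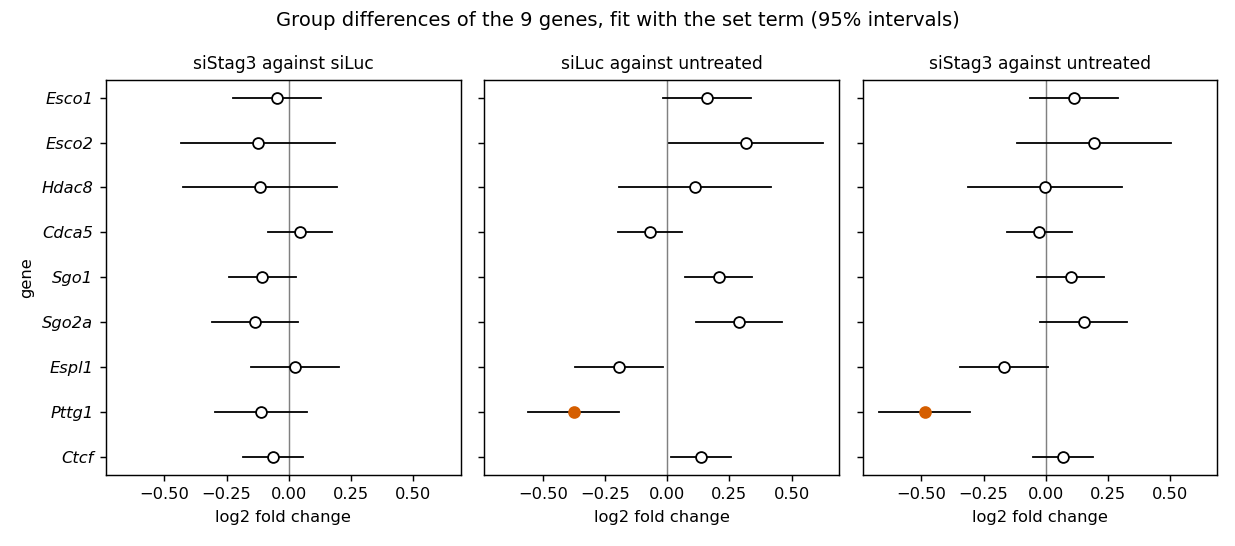
Log2 fold changes of the 9 genes in the 3 comparisons from the fit with the set term; bars are 95% intervals, filled orange points passed an adjusted p of 0.05 and open points did not. Pttg1 is the filled point against untreated cells, at -0.38 in siLuc and -0.49 in siStag3, and no point is filled for siStag3 against siLuc.

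Among the enzymes of SMC3 acetylation, Esco2 read 155, 154 and 169 CPM in siLuc and 156, 175 and 113 in siStag3. The first 2 values of each group, from Set 1, lay close together, and the difference came from Set 3, where the siStag3 library was the lowest of all 9 and the siLuc library among the highest. Its log2 difference was accordingly 0.10 within Set 1 and -0.57 within Set 3. The test of that gap gave -0.67 (SE 0.166, adjusted p = 0.0786). Esco1, at 51.2, 49.0 and 37.1 CPM in siLuc and 52.4, 53.7 and 29.5 in siStag3, had the same form, with 0.08 in Set 1 and -0.33 in Set 3 (gap -0.42, SE 0.124, adjusted p = 0.0957). Hdac8, the SMC3 deacetylase, was scarce in every library, from 3.22 to 4.55 CPM, and its interval for siStag3 against siLuc ran from -0.43 to 0.20, about as wide as that of Esco2.

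Among the protectors of the ring, the shugoshins split in the same way. Sgo2a, a shugoshin that brings the phosphatase PP2A to centromeric cohesin, read 152, 155 and 140 CPM in siLuc and 149, 158 and 106 in siStag3. Sgo1, its mitotic relative, read 121, 118 and 118 in siLuc and 118, 119 and 97.1 in siStag3. For each of them the siStag3 library of Set 3 stood below the other 5, and within Set 1 the differences were 0.00 for Sgo2a and -0.02 for Sgo1, against -0.41 and -0.29 within Set 3. The gap between the sets was -0.41 for Sgo2a (SE 0.123, adjusted p = 0.0992) and -0.27 for Sgo1 (SE 0.0980, adjusted p = 0.145). Cdca5 (sororin) read 97.3, 102 and 92.1 in siLuc and 95.4, 101 and 104 in siStag3. Its difference went the opposite way, with -0.02 in Set 1 and 0.18 in Set 3 (gap 0.20, SE 0.0996, adjusted p = 0.269).

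The scissors and their lock showed no called difference either. Espl1 (separase) read 124, 133 and 125 CPM in siLuc and 126, 115 and 150 in siStag3, with -0.09 in Set 1 and 0.26 in Set 3. Pttg1 (securin) read 64.1, 56.1 and 37.8 in siLuc and 50.5, 53.9 and 40.3 in siStag3, and the groups overlapped. Its log2 fold change of -0.11 had an interval from -0.30 to 0.08, with -0.20 within Set 1 and 0.09 within Set 3. The value was -0.20 in a fit of Set 1 alone (adjusted p = 0.863). With experiment numbers added, which in effect leaves out the siLuc library of Set 3, the value was -0.22 (adjusted p = 0.991). It was -0.22 without the siLuc library of Set 3, and without a library of Set 1, experiment 1, it was -0.0089 (siLuc left out) or -0.070 (siStag3 left out), none of them past the threshold. Ctcf, at 211, 212 and 198 CPM in siLuc and 211, 211 and 173 in siStag3, was level within Set 1 and 0.19 lower in Set 3 on the log2 scale.

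No member passed the test of a difference between the sets for siStag3 against siLuc, where 1.12% of genes did. At an unadjusted p under 0.05, 5 of the 9 members did, where 21.6% of all genes did: Esco1, Esco2, Sgo1, Sgo2a and Espl1. These are the 4 members of lowest GC content, all lower, and the 1 of highest, which was higher. That fit has 3 residual degrees of freedom, all from Set 1, so the single Set 3 library of each group is assumed to vary like the Set 1 libraries. In a fit that also subtracts, in each library, the median deviation of genes of like GC content (20 bins), the gap turned to 0.15 for Esco1, 0.02 for Sgo1 and 0.00 for Sgo2a, and was -0.10 for Esco2 and 0.12 for Espl1. Log2 fold changes for siStag3 against siLuc then ran from -0.09 to 0.06, and again none of the 9 was called, while 0.428% of all genes were.

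**Figure D3:**
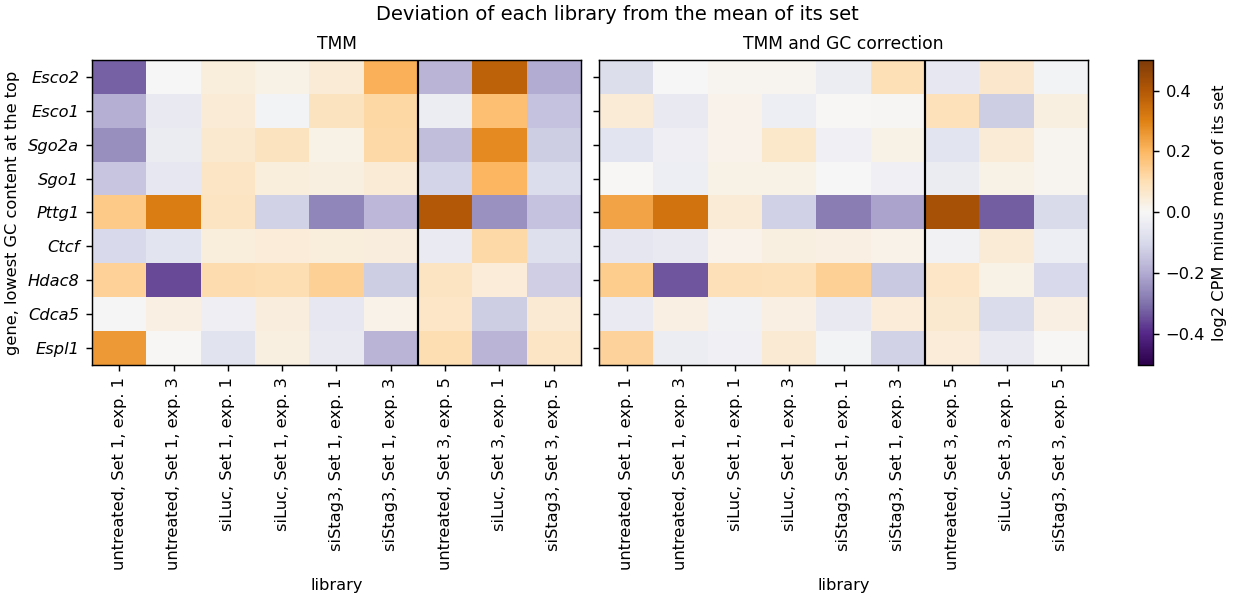
Log2 CPM of each gene in each library minus the mean of its set, with genes ordered by GC content, before (left) and after (right) the GC correction; orange is above and purple below the set mean, and the black line divides Set 1 from Set 3. Before the correction, Esco2 runs from -0.32 (untreated, Set 1, experiment 1) to 0.37 (siLuc, Set 3) and the 4 genes at the top change shade together, while Pttg1 has its own pattern in both panels.

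Against untreated cells, 1 member was called in siLuc, and it was the same gene that was called in siStag3: Pttg1, the securin that holds separase inactive until anaphase. Pttg1 read 67.6, 75.3 and 58.9 CPM in untreated cells, 64.1, 56.1 and 37.8 in siLuc and 50.5, 53.9 and 40.3 in siStag3. In each set every siRNA library was below every untreated one, an order whose share over all genes was not counted. Over all libraries the siStag3 values lay wholly below the untreated ones, while siLuc overlapped them by its highest value. Groups that do not overlap were found for 10% of all genes in siStag3 against untreated, 5.38% being lower in siStag3.

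In siLuc against untreated, Pttg1 fell by 0.38 on the log2 scale (-0.38, SE 0.0853, interval -0.56 to -0.19, edgeR adjusted p = 0.0307), that is, to 77.0% of the untreated level. This was 1 of 9 members, where 4.2% of all genes were called and 2.55% were called lower. The difference was -0.25 within Set 1 and -0.64 within Set 3. The call depends on the set term and on single libraries. The adjusted p was 0.595 with no set term, 0.123 in Set 1 alone and 0.233 with experiment numbers added. The last fit in effect leaves out the siLuc library of Set 3. Leaving out each library gave 0.0253 to 0.168, missing the threshold in 4 of 6 cases. These 4 were without either Set 3 library, or without the siLuc or the untreated library of Set 1, experiment 3, and the fold change then ran from -0.26 to -0.36.

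In siStag3 against untreated, Pttg1 fell by 0.49 on the log2 scale (-0.49, SE 0.0855, interval -0.67 to -0.30, edgeR adjusted p = 0.00834), to 71.4% of the untreated level. It was again the single member called, where 2.53% of all genes were called and 1.46% were lower. The difference was -0.45 within Set 1 and -0.55 within Set 3, and Set 1 alone gave an adjusted p of 0.0134. Without the set term the adjusted p was 0.784. Leaving out each library gave -0.55 to -0.40 and adjusted p-values of 0.00743 to 0.114, missing the threshold without the siStag3 library of Set 1, experiment 1, and without the untreated library of Set 3. The 3 untreated libraries serve both this comparison and that of siLuc, and the values are set side by side only. Pttg1 was as far from untreated after the GC correction, at -0.45 in siLuc (adjusted p = 0.0176) and -0.53 in siStag3 (adjusted p = 0.00773). With that correction 6.97% and 6.76% of all genes were called.

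The other 8 members did not pass against untreated cells, but 5 of them had intervals on 1 side of 0 in siLuc. Esco2, Sgo1 and Ctcf did not overlap between siLuc and untreated, as for 19.9% of all genes. Esco2 was at 121, 151 and 115 CPM in untreated cells against 154 to 169 in siLuc, with a log2 difference of 0.32 (SE 0.136, adjusted p = 0.173). Sgo2a, at 123, 142 and 103 CPM in untreated cells, differed by 0.29 (adjusted p = 0.0581), and Sgo1, at 104, 111 and 95.5, by 0.21 (adjusted p = 0.0677). Ctcf, at 191, 196 and 178 CPM in untreated cells against 198 to 212 in siLuc, differed by 0.14 (adjusted p = 0.14), and Esco1 by 0.16 (adjusted p = 0.221). Espl1, at 156, 131 and 152 CPM in untreated cells, differed by -0.19 (adjusted p = 0.152), Cdca5 by -0.07 and Hdac8 by 0.11. With Pttg1, 6 of the 9 had an unadjusted p under 0.05, where 27.8% of all genes had one. The DESeq2 Wald test, with the same set term, called Esco2 (adjusted p = 0.0414), Sgo1 (0.0379) and Sgo2a (0.0155) beside Pttg1 (0.00322), 4 of 9 members where it called 11.6% of the genes it tested.

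The 4 members of lowest GC content all lay above untreated in siLuc, and Espl1, the GC-richest, lay below. After the GC correction the siLuc differences were 0.07 for Esco2, 0.10 for Sgo2a, 0.05 for Sgo1, -0.07 for Esco1, 0.07 for Ctcf and -0.05 for Espl1, and none of these passed. In siStag3 against untreated the differences before the correction were 0.19 for Esco2, 0.15 for Sgo2a, 0.10 for Sgo1, 0.11 for Esco1, 0.07 for Ctcf and -0.17 for Espl1, with adjusted p-values of 0.32 to 0.537. Without the siStag3 library of Set 3, Esco1 (0.23, adjusted p = 0.0406), Sgo2a (0.25, adjusted p = 0.0417) and Espl1 (-0.26, adjusted p = 0.0460) passed with Pttg1. That fit called 1591 of 14428 genes, against 361 of 14246 with all libraries.

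The spread of each member around its set means, over all 9 libraries, was computed without reference to the groups. It therefore includes any difference between the groups, such as that of Pttg1 from untreated cells. The SD of log2 CPM was 0.228 for Esco2, 0.172 for Sgo2a, 0.148 for Espl1, 0.130 for Esco1, 0.116 for Sgo1, 0.0774 for Ctcf and 0.0661 for Cdca5. After the GC correction these became 0.0602, 0.0501, 0.0742, 0.0669, 0.0258, 0.0412 and 0.0541. Hdac8, of few counts and middling GC content, went from 0.179 to 0.172, and Pttg1 from 0.262 to 0.291. So Pttg1 was the most variable member, and it alone did not become steadier. The correction was built from the same libraries, and what sets the GC pattern of a library was not tested.

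**Figure D4:**
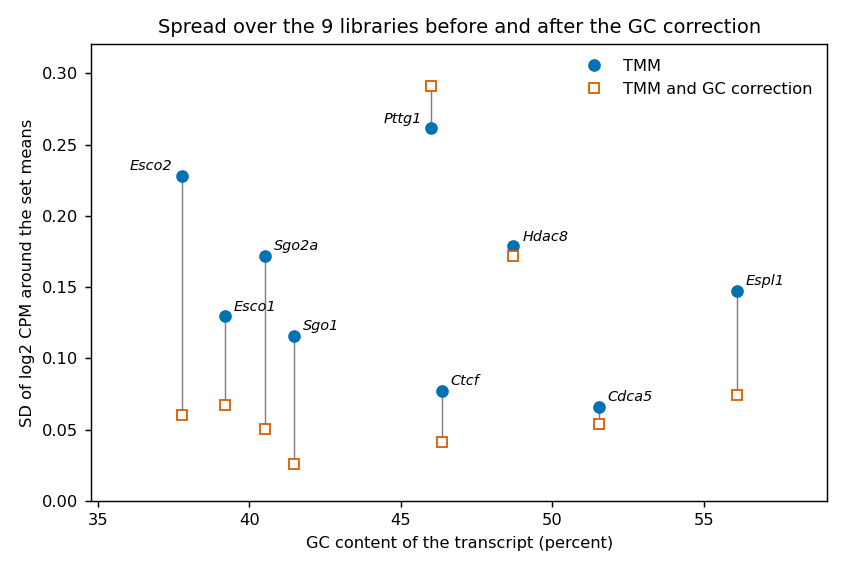
SD of log2 CPM around the set means over the 9 libraries (vertical axis from 0) against GC content of the transcript, for each gene before (filled circles) and after (open squares) the GC correction. The drop is steepest for Esco2 (0.228 to 0.0602) and Sgo2a (0.172 to 0.0501), while Pttg1 (0.262 to 0.291) does not drop.

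The members also moved with each other across libraries, given here as a description over 9 libraries that share their sets and their GC pattern. Sgo1 and Sgo2a had a Pearson correlation of set-centred log2 CPM of 0.98, Esco2 and Sgo2a 0.98, and Esco2 and Espl1 -0.95. For Esco1 and Esco2 the value was 0.94, and with the GC correction it was -0.62, so their agreement was not seen once genes of like GC content were used as the baseline. The pairs named before kept their direction with that correction. Sgo1 and Sgo2a were then at 0.66, Esco2 and Sgo2a at 0.75, and Esco2 and Espl1 at -0.86. By the same measure, the genes most like the members were Arl4a and Marchf7 for Esco2, Ccar1 and Ccne2 for Esco1, Zfp850 and Hif1a for Sgo1, Zfp638 and Ddx6 for Ctcf, Prr12 and Atg2a for Espl1, Parp9 and Zscan21 for Cdca5, and Supt3 and Ttf2 for Hdac8, with correlations of 0.95 to 1.00. The pair most like Esco2 had GC contents of 38.4% and 40.2%, and the pair most like Espl1 62.3% and 60.0%. Likeness did not always go with GC content, since Smad4 (0.99), among the genes most like Sgo2a, was at 49.4%. For Pttg1 they were Pttg1ip (0.99), whose product binds securin, and Uba1y (0.98). All these genes were picked for the highest correlation, so high values come partly from the picking. How high the best match would be by chance was not tested. Pttg1ip itself read 79.3, 82.1 and 79.6 CPM in untreated cells, 78.5, 75.9 and 70.7 in siLuc and 73.6, 76.0 and 71.3 in siStag3, a far smaller range than that of Pttg1. Its difference from untreated was -0.10 in siLuc (adjusted p = 0.249) and -0.13 in siStag3 (adjusted p = 0.263).

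Between the sets, 5 of 9 members were called, all lower in Set 3, where 42.7% of all genes were called and 21.2% were lower. Esco1 fell by 0.59 on the log2 scale (adjusted p = 5.49e-05), Pttg1 by 0.43 (adjusted p = 0.000596), Sgo2a by 0.34 (adjusted p = 0.00205), Ctcf by 0.17 (adjusted p = 0.0144) and Sgo1 by 0.16 (adjusted p = 0.0315). The count is to be read against that high share of all genes. After the GC correction Esco1 (-0.27, adjusted p = 0.000133) and Pttg1 (-0.32, adjusted p = 0.0102) were still called lower, Esco2 was called higher (0.11, adjusted p = 0.0319), and 41.5% of all genes were called. With experiment numbers added to the fit, only Pttg1 of the 9 was called (-0.66, adjusted p = 0.0106), where 4.91% of all genes were. Esco1 was at -0.41, Ctcf at -0.09, Sgo2a at -0.08 and Sgo1 at -0.0067. Scaling by total count alone left 3 members called. With single libraries left out, Sgo1 missed the threshold in 5 of 9 cases (without any siStag3 library, or without the untreated library of Set 1, experiment 3, or of Set 3) and Ctcf in 1 (without the siStag3 library of Set 3). Without the siLuc library of Set 3, Esco2 (-0.39, adjusted p = 0.00736) and Espl1 (0.20, adjusted p = 0.0489) passed as well, where 6355 of 14435 genes did.

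The wider machinery was read from 6 lists with 89 genes in all, every one of them tested. In siStag3 against siLuc none of the 89 was called by edgeR or DESeq2, and 1 had an unadjusted p under 0.05, where 7.88% of all genes had one. Median log2 fold changes were -0.09 for cohesin core, loading and release (10 genes, 2 of them positive), 0.02 for the phosphatase and kinases at centromeric cohesin (16 genes), 0.03 for the anaphase-promoting complex and spindle checkpoint (26 genes), -0.03 for the CTCF paralog and partners (6 genes), 0.02 for replication (18 genes) and -0.03 for mitosis (20 genes), against 0.00 over all genes. The cohesin core median was 0.00 after the GC correction.

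In siLuc against untreated 4 of the 89 list genes were called, where 4.2% of all genes were. Stag2, the main STAG subunit of dividing cells alongside Stag1, read 70.2, 78.5 and 61.8 CPM in untreated cells and 93.9, 90.6 and 84.8 in siLuc. These did not overlap (as for 19.9% of all genes), and Stag2 rose by 0.36 (SE 0.0880, edgeR adjusted p = 0.0394). It was the single gene of the 10 in the cohesin core list to pass, and that list had a median of 0.14. Hmmr, a spindle protein, rose by 0.29 (SE 0.0634, adjusted p = 0.0263) and Nusap1, which bundles spindle microtubules, by 0.25 (SE 0.0636, adjusted p = 0.0427), 2 of 20 mitosis genes with a list median of 0.13. Chtf18, part of the clamp loader that supports cohesion at replication forks, fell by 0.37 (-0.37, SE 0.0701, adjusted p = 0.0128), the single call among 18 replication genes, whose median was -0.02. Chtf18 is GC-rich at 59.0%, and the other 3 are GC-poor, from 38.1% to 41.8%. After the GC correction Chtf18 was still called, at -0.19 (adjusted p = 0.00873), and Stag2 (0.12), Hmmr (0.13) and Nusap1 (0.09) were not. The GC correction left list medians of -0.0092 for the cohesin core, 4 of 10 genes being positive, and 0.05 for mitosis. Without the set term none of the 4 was called (adjusted p-values of 0.58 to 0.6), where 0.00702% of all genes were. No gene of the anaphase-promoting complex list, which acts on securin, passed in this fit, and its median was -0.03. With the GC correction 2 of the 89 genes were called, where 6.97% of all genes were. They were Chtf18 and Cdc16, a subunit of that complex (-0.18, adjusted p = 0.0105). DESeq2 called 11 of the 89, where it called 11.6% of the genes it tested. Among the 11 were Cdc27 (0.28, adjusted p = 0.0186), Anapc2 (-0.23, adjusted p = 0.0498) and Ccnb1 (0.24, adjusted p = 0.0238) of the anaphase-promoting complex list.

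In siStag3 against untreated none of the 89 list genes was called by edgeR with the set term. At an unadjusted p under 0.05 there were 13, where 17% of all genes had one. With the GC correction edgeR called 3, where it called 6.76% of all genes. They were Chtf18 (-0.15, adjusted p = 0.0377), Hmmr (0.15, adjusted p = 0.0275) and Ccna2 (0.19, adjusted p = 0.0480), the last being cyclin A2. DESeq2 called 2, Chtf18 and Hmmr, where it called 3.28% of the genes it tested. The list medians there ran from 0.01 to 0.08.

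Some of these counts can be shared between genes. Of the 31-base stretches of Sgo2a transcripts, 4.76% also occur in Sgo2b, a near copy that the table lists separately, and 10.8% of those of Esco1 occur in the pseudogene Gm7054. For Sgo1 the share was 4.23%, mostly with pseudogenes Gm6982 and Gm7739. Ctcf overlaps 3 annotated noncoding genes or pseudogenes, and Hdac8 and Sgo1 overlap 1 each, so part of their counts could belong to those genes, as the counting is not described.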

How the data were processed

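The authors deposited raw counts per gene as whole numbers for 9 libraries (untreated, siLuc and siStag3, 3 each). FastQC, Salmon, DESeq2 and the build GRCm39 are named, without roles, per the submitters' processing notes. Salmon gives estimated counts, so the whole numbers may be rounded estimates. The annotation release and strand setting are not given in the sources used here. The smallest row sum is 9 counts. Libraries were mapped to groups by column name, and the names carry set and experiment numbers but no replicate number of the sample titles. Total counts were 29332436 to 44527534, and 3 counts equal 0.0674 to 0.102 CPM. These limits cover counting error only.

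Counts were tested with edgeR 4.0.16 in R 4.3.3 (TMM, filterByExpr, estimateDisp, robust glmQLFit, glmQLFTest) with group means and an additive set term over all 9 libraries. P-values are two-sided and adjusted by the Benjamini-Hochberg method over 14246 genes, with a threshold of 0.05. Adjusted p-values without a named tool are from this test. A difference between sets was tested with a mean for each group in each set. CPM are TMM-scaled, and correlations use log2 CPM with a prior count of 2. GC content, transcript lengths and shared 31-base stretches came from GENCODE M21 (GRCm38), which holds 16604 of the 16636 gene IDs, so no gene coordinates are printed. The 120-base windows come from the same transcripts. The GC correction subtracts each library's median deviation in 20 GC bins as an offset.

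The members, the 6 gene lists and the set term were chosen with earlier results of these data known. All members and Stag3 are named, from each list the genes past the threshold (at most 3 each way), and for likeness the 2 genes of highest correlation among those averaging 3 log2 CPM or more. One of the genes most like Sgo2a is not reported here, and Cdc16, Cdc27, Anapc2, Ccnb1 and Ccna2 were named after their values were seen. Sgo2b, Ctcfl and the CPM of Pttg1ip were added after values were seen. Alternatives were DESeq2 1.42.0 (size factors and Wald test), total-count scaling, no filter on low counts, a stricter filter (mean count of 50 or more), no set term, Set 1 alone, the 6 libraries compared, experiment numbers as a further term, the GC correction and each library left out. The fits with and without the set term were tested on simulated data, for siLuc against untreated only.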

Additional observations from a re-analysis of the deposited data

How the results depend on the processing

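No paired analysis was possible because the columns carry no replicate numbers of the sample titles. The experiment numbers in the column names were used as a block in their place, with the values given below as experiment terms. In Set 1, deviations of libraries with the same experiment number correlated across genes at -0.03 to -0.04. A set contrast without the set term does not exist and was not run. Of 624 single-gene values under alternatives, 544 kept their direction and side of the threshold, 27 no longer passed, 10 newly passed and 43 changed sign. Depth limits Hdac8, with 109 to 207 counts.

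Without the set term Stag3 was at -0.71 in siStag3 against siLuc but not past the threshold, all-gene calls were 0 there, 1 in siLuc and 2 in siStag3 against untreated, and member calls against untreated were 0 and 0. The DESeq2 Wald test called 22 genes for siStag3 against siLuc, and 1296 genes and 4 members for siLuc against untreated. Set 1 alone called 298 genes and 0 members in siLuc and 949 genes in siStag3 against untreated. The 6 libraries compared gave 1 gene for siStag3 against siLuc, and 1801 genes and 3 members for siLuc against untreated. Experiment numbers as a term gave 2 genes for siStag3 against siLuc, 86 genes and 0 members for siLuc against untreated, and 699 genes and 1 member between sets. The GC correction gave 61, 993 and 963 genes in the 3 group comparisons and 3 members between sets. Total-count scaling gave 3 members between sets.

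Leaving out each library, Stag3 ran from -0.76 to -0.67. All-gene calls were 0 to 4 (siStag3 against siLuc), 111 to 387 (siLuc against untreated), 78 to 1591 (siStag3 against untreated) and 4162 to 6355 (sets), and member calls 0 to 0, 0 to 1, 0 to 4 and 3 to 7. In siStag3 against siLuc, Cdca5 ran from -0.019 to 0.089, Esco1 from -0.096 to 0.072, Esco2 from -0.22 to 0.051 and Espl1 from -0.069 to 0.097. Cdca5 ran from -0.056 to 0.012 in siStag3 against untreated and -0.0087 to 0.092 between sets. Hdac8 ran from -0.037 to 0.21 in siLuc and -0.15 to 0.10 in siStag3 against untreated, and -0.059 to 0.10 between sets.

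These uncalled differences changed sign. In siStag3 against siLuc, Set 1 alone gave -0.022 for Cdca5, 0.083 for Esco1, 0.10 for Esco2 and -0.094 for Espl1. Experiment terms gave -0.020, 0.031, 0.046 and -0.060 for the same genes, and the GC correction 0.056 for Esco1 and -0.036 for Espl1. The GC correction gave -0.075 and -0.019 for Esco1 in siLuc and siStag3 against untreated. Hdac8 in siStag3 against untreated was 0.0017 (DESeq2 Wald), 0.0013 (its size factors), 0.0029 (the 6 libraries), 0.00054 (experiment terms) and 0.10 (Set 1 alone). The GC correction turned the gap between sets to 0.15 for Esco1, 0.022 for Sgo1 and 0.0047 for Sgo2a. Between sets, where Sgo1 had been called, it gave 0.044 for Sgo1, -0.017 for Cdca5, 0.11 for Esco2 and -0.051 for Espl1, and experiment terms gave -0.080 for Cdca5, 0.20 for Esco2, -0.094 for Espl1 and -0.15 for Hdac8. The cause was not tested.

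Levels per kilobase with the median transcript length were 239 for Ctcf, 222 for Espl1, 205 for Sgo1, 160 for Esco2, 96.4 for Pttg1, 56.8 for Cdca5, 30.3 for Sgo2a and 19.7 for Esco1. The longest protein-coding transcript, an alternative chosen after seeing the data, gave 44.3 for Esco2.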

Other observations

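The members have close relatives that were read after their values had been seen. Sgo2b, the near copy of Sgo2a, was at 3.93, 4.11 and 3.57 CPM in untreated cells, 5.76, 5.05 and 4.88 in siLuc and 4.75, 5.86 and 4.03 in siStag3. Its siLuc libraries lay above all untreated ones, where 19.9% of all genes had no overlap in either direction. The log2 difference was 0.43 (SE 0.124, edgeR adjusted p = 0.0611), and it rests on 122 to 186 counts. Ctcfl (BORIS), the germ cell paralog of Ctcf, was at 3.42, 3.57 and 3.66 CPM in untreated cells, 4.77, 4.25 and 5.45 in siLuc and 4.49, 5.04 and 2.41 in siStag3. The siStag3 library of Set 3 was the lowest and the siLuc library of Set 3 the highest, and no comparison of Ctcfl passed (log2 difference of siLuc from untreated 0.44, SE 0.206, adjusted p = 0.192).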
